A study of Mus musculus with 4 samples.

Results

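The genes described here are the interleukins and their receptors: the protein-coding genes of the mouse gene table (build GRCm38.p6, from RefSeq) whose symbol is Il followed by a number. The symbol rule gave 83 genes of 21779 protein-coding genes. They were sorted by known role into 37 ligand genes, 40 receptor genes, 4 genes for antagonists or binding proteins and 2 other genes. The other genes were Il4i1, an amino acid oxidase gene, and Il4i1b, which overlaps nearly all of it. Bone marrow haematopoietic stem cells of Ppp2ca wild-type mice were profiled by CUT&Tag, a method that marks DNA near an antibody's target with a tethered transposase. Of the 4 libraries, 2 used an antibody against PPP2CA, the catalytic subunit of the phosphatase PP2A (PPP2CA 1 and 2), and 2 used control immunoglobulin G (IgG 1 and 2). The labels give no treatment, age or strain and do not say how many animals gave each library, so the spread between libraries may be technical.

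Interleukins are secreted proteins by which blood and immune cells signal to each other. Most of their receptors pair a chain that recognises 1 ligand with a chain shared by several receptors, such as gp130 (Il6st) for the IL-6 family, the common gamma chain (Il2rg) for the IL-2 family and the common beta chain (Csf2rb) for IL-3 and IL-5, and these receptors work through JAK kinases and STAT factors. Receptors of the IL-1 and IL-17 families instead recruit adaptor proteins that lead to NF-kappaB and MAP kinases. In the bone marrow, IL-1, IL-3 and IL-6 are known to act on stem and progenitor cells. The ligand genes themselves are mostly made by activated immune or stromal cells.

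A region here is a stretch where peaks of both PPP2CA libraries shared at least 1 bp, merged, and where neither IgG library had a peak. There were 12438 such regions. A gene was counted as marked at a boundary when a region reached within 1 kb of either end of the gene, and as marked in the body when a region lay inside it beyond those windows. The height of a region is given as the number of fragments at its summit, recovered from the fold and −log10 p that the authors deposited for each peak. The PPP2CA libraries held 16811 and 17686 peaks with a median summit of 18 fragments in each, and the IgG libraries 561 and 310 peaks with a median summit of 4. Between a PPP2CA and an IgG library the lowest local background differed 9.34 to 9.61 times, with PPP2CA above. As a check of the labelled cell type, the stem cell marker genes Kit, Mecom and Meis1 carried a region, and Cd34, Gata2, Hlf, Ly6a, Procr and Slamf1 did not. Among markers of other blood and stromal cells, 4 genes were listed each for T, B, myeloid, erythroid, and stromal and endothelial cells. Of these, Cd3d, Klf1 and Epor carried a region at a boundary, and Csf1r and Pecam1 carried one in the body. Over all protein-coding genes, 45.3% carried a region at a boundary or in the body. A peak does not measure expression, so these counts neither identify the cells nor exclude others.

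Sequence is shown for the starts of 5 genes that lay inside a region, to set the best-ranked covered promoters beside the single ligand promoter that was covered. Each run is the RefSeq promoter of build GRCm38.p6, 250 bases before to 50 after the annotated start, 5′ to 3′ on the strand of the gene. Il4i1b, Il6ra, Il2rg and Il3ra had the best regions over a start, by the worse of their ranks of −log10 q in the 2 libraries, and Il6 was added after its values were seen. They lie at chr3:89913147-89913446 (Il6ra, minus strand), chrX:101268206-101268505 (Il2rg, minus strand), chr14:14346245-14346544 (Il3ra, plus strand), chr5:30012864-30013163 (Il6, plus strand) and chr7:44816120-44816419 (Il4i1b, plus strand). Capitals mark every match, on either strand, to 8 motifs given further on, 7 by their letters and that of NF-kappaB by name.
Il6ra: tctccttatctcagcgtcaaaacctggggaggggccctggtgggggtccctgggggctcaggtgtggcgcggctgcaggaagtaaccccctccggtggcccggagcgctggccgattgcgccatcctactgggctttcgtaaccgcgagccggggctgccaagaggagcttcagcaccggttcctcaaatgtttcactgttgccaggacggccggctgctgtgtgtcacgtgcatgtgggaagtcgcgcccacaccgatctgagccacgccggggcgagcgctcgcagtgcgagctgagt
Il2rg: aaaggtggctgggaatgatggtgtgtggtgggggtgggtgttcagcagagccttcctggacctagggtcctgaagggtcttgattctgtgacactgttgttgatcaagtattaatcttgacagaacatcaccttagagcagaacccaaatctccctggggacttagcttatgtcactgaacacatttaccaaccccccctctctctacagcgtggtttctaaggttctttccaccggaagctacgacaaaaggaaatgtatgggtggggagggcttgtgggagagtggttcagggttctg
Il3ra: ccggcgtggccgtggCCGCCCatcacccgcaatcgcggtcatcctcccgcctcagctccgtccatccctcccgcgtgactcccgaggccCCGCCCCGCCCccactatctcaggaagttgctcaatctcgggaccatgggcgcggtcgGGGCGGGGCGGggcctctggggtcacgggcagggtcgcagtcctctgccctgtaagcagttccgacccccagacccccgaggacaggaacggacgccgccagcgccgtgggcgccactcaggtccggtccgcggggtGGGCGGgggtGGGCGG
Il6: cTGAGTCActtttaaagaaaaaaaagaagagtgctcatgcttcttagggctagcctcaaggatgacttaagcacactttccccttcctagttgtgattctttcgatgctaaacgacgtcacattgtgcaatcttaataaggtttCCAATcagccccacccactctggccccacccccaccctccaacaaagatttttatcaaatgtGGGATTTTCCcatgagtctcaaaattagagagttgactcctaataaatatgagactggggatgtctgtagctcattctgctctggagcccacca
Il4i1b: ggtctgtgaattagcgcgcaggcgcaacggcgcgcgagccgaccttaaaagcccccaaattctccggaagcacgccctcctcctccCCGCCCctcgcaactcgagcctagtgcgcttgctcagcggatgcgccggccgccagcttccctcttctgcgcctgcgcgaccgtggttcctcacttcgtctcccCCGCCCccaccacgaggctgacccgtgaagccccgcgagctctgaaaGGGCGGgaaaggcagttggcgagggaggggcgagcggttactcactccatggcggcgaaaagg
In Il3ra 7 matches to the GC box were found and in Il4i1b 3, and the Il6ra and Il2rg promoters held no match to any of the 8. The Il6 promoter held 3 different motifs: an AP-1 match at −249 to −243, an NF-Y match at −106 to −102 and an NF-kappaB match at −44 to −35, counted from the start as +1. A match describes the letters only.

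A minority of these genes carried PPP2CA signal, and most of those that did encode receptors. At a gene boundary, 15 of the 83 genes had a region (18.1%, 95% exact interval 10.5 to 28.0), where the share over all protein-coding genes was 39.5%. By role, 12 of the 40 receptor genes (30.0%, 16.6 to 46.5), 2 of the 37 ligand genes (5.41%, 0.661 to 18.2), none of the 4 antagonist genes and 1 of the 2 other genes had one. With gene bodies included, 19 of 83 genes were marked (22.9%, 14.4 to 33.4), against 45.3% of all protein-coding genes. That was 14 receptor genes (35.0%) and 4 ligand genes (10.8%). Marked in the body only were 4 genes (4.82%), near the 5.79% of all genes. The intervals cover counting error only. Genes are not replicates and many interleukin genes lie in clusters, so no test between the lists was made and these shares are descriptions. The ligand count at a boundary was 3 with PPP2CA 1 alone, 4 with PPP2CA 2 alone and 0 with summits of 20 or more fragments in both, where the receptor count was 15, 14 and 6.

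**Figure D1:**
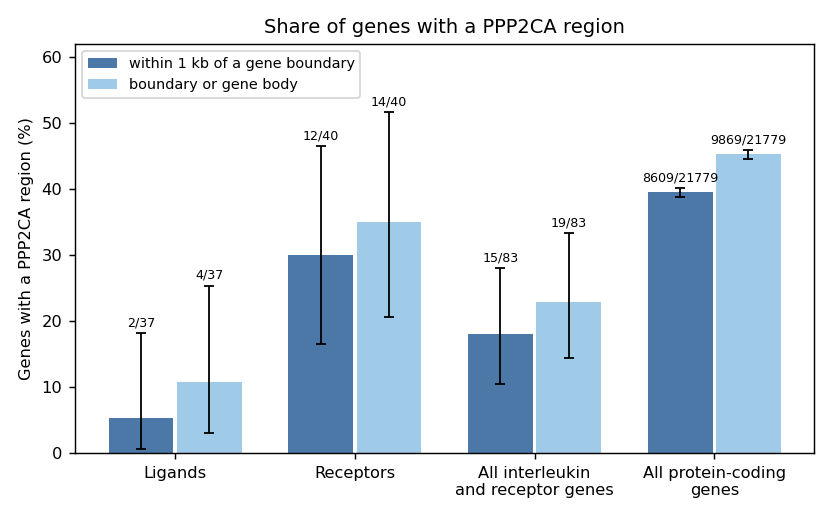
Share of genes, in percent, with a PPP2CA region within 1 kb of a gene boundary (dark bars) or also in the gene body (light bars), with 95% exact intervals for counting error and the counts above the bars. Ligands stand at 5.41% and receptors at 30.0% at a boundary, and all protein-coding genes at 39.5%.

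Gene length differed with role as well. The median length was 6.6 kb for ligand genes, 33.8 kb for receptor genes and 17.2 kb for all protein-coding genes. Within the receptor list the 14 marked genes had a median of 20.1 kb and the 26 unmarked ones 41.8 kb, and over all genes the marked ones were longer (23.6 kb against 12.0 kb). Inside gene bodies there were 4.24 regions per Mb in ligand genes, 1.24 in receptor genes and 3.03 in all protein-coding genes. The ligand value rests on 2 regions in 0.471 Mb and the receptor value on 5 regions in 4.02 Mb. The ligand region at Il12a was lost with a −log10 q of 5 or more. With so few regions these values do not rank the lists. Without the neuronal receptor genes Il1rapl1 and Il1rapl2, each over a megabase long and without a region, the receptor value was 3.66 per Mb. The part of gene length in the difference between ligands and receptors was not tested.

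The regions were of middling height. Over the 15 boundary regions of these genes the median summit held 21 and 24 fragments in PPP2CA 1 and 2, against 28 and 31 over the 7509 boundary regions of all protein-coding genes. The fold of the summit over local background, as the authors gave it, had medians of 5.95 and 6.04 against 6.92 and 6.88. Their median width was 916 bp against 1004 bp. The 7 regions in gene bodies had median summits of 25 and 32 fragments, against 19 and 20 over 2868 body regions, and a median fold of 5.22 and 4.78 against 5.49 and 5.53.

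**Figure D2:**
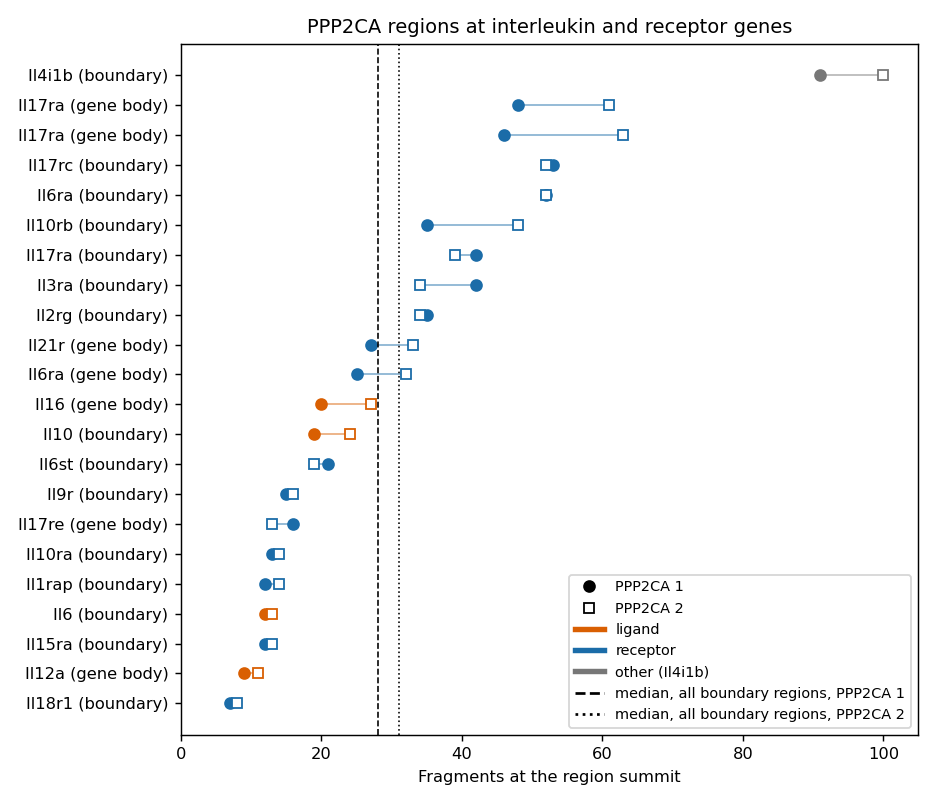
Fragments at the summit of each of the 22 regions at interleukin and receptor genes, with filled circles for PPP2CA 1 and open squares for PPP2CA 2. Il4i1b stands highest at 91 and 100, the receptor regions run from 7 to 63, the ligand regions from 9 to 27, and the vertical lines give the medians of 28 and 31 over all boundary regions.

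Among the receptors of the IL-6 family, both shared and private chains were marked at the start. Il6ra, the IL-6 binding chain, carried a region at chr3:89912230-89913367 with 52 fragments in PPP2CA 1 and 52 in PPP2CA 2, a fold of 6.87 and 6.58 and a place in the top 17.1% and 18.2% of the peaks of each list by −log10 q. Both summits lay just inside the gene, 219 and 284 bp downstream of its start. A further region in the first part of the gene body, at chr3:89911144-89911751, held 25 and 32 fragments. Il6st, the gp130 chain, had 21 and 19 fragments at chr13:112463658-112464493, with summits at 4 and −47 bp from its start. The fold at Il6st was 8.01 and 6.74, over a local background of 1.75 and 1.97 fragments, where that at Il6ra was 6.71 and 7.06. Il27ra and Il11ra1 had a peak in PPP2CA 1 alone, and Il31ra and Il11ra2 had none.

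Of the IL-2 family receptors, the shared chain had the highest region at a boundary. Il2rg, the common gamma chain, carried 35 and 34 fragments at chrX:101267716-101268874, with summits at −177 and −120 bp from its start. It was the single marked gene of the 5 interleukin genes on the X chromosome, where 22.6% of the 963 protein-coding genes had a region at a boundary. Il15ra, the private chain for IL-15, had 12 and 13 fragments at chr2:11705362-11706136, over the second of its annotated starts. Il21r was marked inside the gene at chr7:125630257-125631253, 27131 and 27338 bp from its start, with 27 and 33 fragments. Il9r had 15 and 16 fragments at chr11:32205165-32205684, across the high-coordinate end of the gene, which is its upstream end. This region also covered the annotated start of the neighbouring splicing gene Snrnp25, and its summits lay at −5154 and −5213 bp from the single start that the promoter table gives for Il9r, which lies inside the gene. Il2ra had a peak in PPP2CA 1 alone, and Il2rb, Il4ra and Il7r had none. Il7r, the IL-7 receptor of lymphoid progenitors, lay 365136 bp from the nearest region.

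Il3ra, the IL-3 binding chain known as CD123, had 42 and 34 fragments at chr14:14345641-14346515. The merged region covered its annotated start at 14346495, with the summits at −650 and −585 bp from it. That start lies inside the gene, whose upstream end is at 14345912. The peaks of both libraries crossed this upstream end, with summits at 14345845 and 14345910. Only the PPP2CA 1 peak reached the annotated start at 14346495, and the PPP2CA 2 peak ended short of it at 14346312. Il5ra, the IL-5 binding chain, had no peak in any library. Their shared partner Csf2rb carried a low region, with 13 and 9 fragments.

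The IL-17 receptors held the most regions of any receptor family here, 5 regions at 3 of 5 genes. Il17ra, the chain shared by all IL-17 receptors, had 3 regions: across its low-coordinate boundary at chr6:120463121-120464186 (42 and 39 fragments) and inside the gene at chr6:120466445-120467338 (48 and 61) and chr6:120473393-120474169 (46 and 63). The fold of the boundary region was only 4.44 and 3.63, over a local background of 8.69 and 10.0 fragments, and its summits in the 2 libraries lay 814 bp apart. Il17rc had 53 and 52 fragments with a fold of 9.83 and 9.21 at chr6:113482613-113483922, the best-ranked region of any receptor gene. That region lay at the far end of Il17rc and covered the annotated start of the next gene, Creld1. In Il17re, whose product binds IL-17C, a region inside the gene (16 and 13 fragments, chr6:113468866-113469618) covered the start of the long non-coding RNA gene Gm52872. Il17rb and Il17rd had no peak.

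Both chains of the IL-10 receptor were marked. Il10rb, a chain shared by the receptors for IL-10, IL-22 and related ligands, had 35 and 48 fragments across its low-coordinate boundary at chr16:91405731-91406987, within 1 kb of a boundary of the interferon receptor gene Ifnar2 as well. Il10ra had 13 and 14 fragments at chr9:45268507-45269206, across its high-coordinate boundary. The region at Il10ra was lost with a −log10 q of 5 or more, with a reciprocal overlap of 50% and with summits of 20 or more fragments. Il20ra, Il20rb and Il22ra1 had no peak. No promoter entry was used for Il10rb, Il10ra and Il17ra, so their boundaries are given by coordinate.

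Of 9 IL-1 family receptor genes, 2 were marked and both regions were low. Il1rap, the accessory chain that the receptors for IL-1, IL-33 and IL-36 share, had 12 and 14 fragments at chr16:26581335-26582309. Its summits lay at −90 and −94 bp from its annotated start at 26581705. That start and both summits lay inside the gene, whose upstream end is at 26581509. Il18r1 had 7 and 8 fragments, the lowest of the 22 regions, at chr1:40501754-40502247. That place lay 900 bp past the end of the gene, close to the edge of the 1 kb window. Il1r1, the signalling IL-1 receptor, had a peak inside the gene in each library, but these did not overlap and formed no region. Il18rap had a peak in PPP2CA 2 alone, and the decoy receptor gene Il1r2, Il1rl1, Il1rl2, Il1rapl1 and Il1rapl2 had none in the PPP2CA libraries. No IL-12 or IL-13 receptor gene had a region, and Il12rb1 and Il12rb2 had a peak in PPP2CA 2 alone.

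Among the ligands, Il6 and Il10 were marked at a boundary and Il12a and Il16 inside the gene. Il6, a cytokine that drives acute-phase and blood cell responses, had 12 and 13 fragments at chr5:30012910-30013600, with a fold of 6.35 and 5.66. Its summits lay at 39 and −86 bp from the start, and it was the single ligand start inside a region. At Il10, which restrains inflammation, the region held 19 and 24 fragments at chr1:131025420-131026335, 450 bp beyond the high-coordinate end of the gene. Il12a, a subunit of IL-12, had 9 and 11 fragments at chr3:68691700-68693159, 1141 and 885 bp downstream of the nearest annotated start. By −log10 q its peaks ranked low, at 91.4% and 80.2% from the top of each list. The region at Il12a was lost with a −log10 q of 5 or more, with a reciprocal overlap of 50% and with summits of 20 or more fragments. Il16 had 20 and 27 fragments at chr7:83659082-83659968, inside a gene of 103 kb. The boundary regions of Il6 and Il10 lay below the medians of 28 and 31 fragments of boundary regions at large. Against the medians of 19 and 20 of body regions, Il16 lay above and Il12a below in both libraries.

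The other ligand genes carried no region, and 28 of the 37 had no PPP2CA peak at all. Of the 40 receptor genes, 19 had none either. Over all protein-coding genes, 51.5% had a PPP2CA 1 peak and 52.4% a PPP2CA 2 peak at a boundary or in the body. The share of all genes without a peak in either library was not counted. Among the ligands, a peak in 1 library only was found at Il15 and Il34 (PPP2CA 1) and at Il11, Il17d and Il18 (PPP2CA 2). The 28 without a peak include the genes for the stem and progenitor cytokine IL-3, the lymphoid growth factor IL-7, the inflammatory IL-1 genes Il1a and Il1b, the T cell cytokines Il2, Il4, Il5, Il13, Il17a, Il17f, Il21 and Il22, and Il33. The antagonist and binding protein genes Il1rn, Il1f5, Il18bp and Il22ra2 had no peak. Il3, Il4 and Il13 lay 49661, 44632 and 63495 bp from the nearest region, and Il5 12089 bp. Of the 33 unmarked ligand genes 8 lay within 10 kb of a region, and of the 26 unmarked receptor genes 3 did. The median distance was 49.7 kb for the ligand genes and 42.5 kb for the receptor genes. These distances were not computed over all unmarked protein-coding genes, so the counts have no background to be read against.

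Several ligand genes sat just outside the 1 kb window. Il1a lay 1716 bp from a region of 26 and 26 fragments, Il9 1828 bp from one of 8 and 10, and Il1b 1952 bp from one of 11 and 12. Just inside it were Il18r1 at 900 bp and Il10 at 450 bp. With a window of 2 kb, 6 ligand genes were marked at a boundary in place of 2, with Il1a, Il1b, Il9 and Il12a added, while receptors went from 12 to 13 and all protein-coding genes from 39.5% to 41.9%. The ligand count at a boundary therefore moved with the window by more than 1.5 times.

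**Figure D3:**
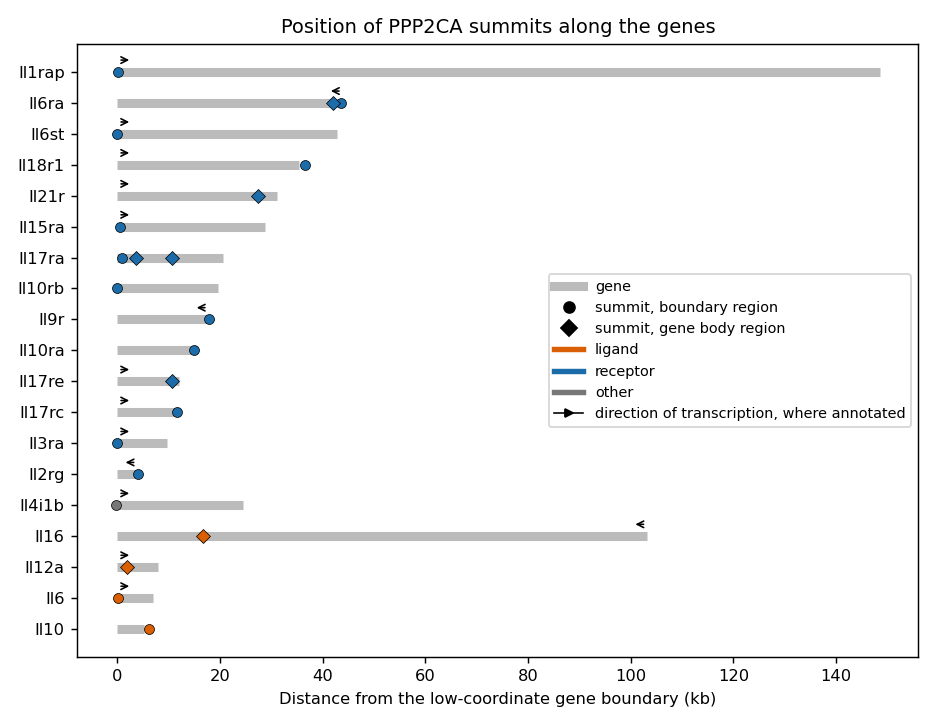
Summits of PPP2CA 1 in the 22 regions, in kb from the low-coordinate boundary of each of the 19 marked genes, drawn to scale as grey bars, with arrows for the direction of transcription where it was annotated. Circles are boundary regions and diamonds are regions in the gene body. Il6ra, Il6st, Il2rg, Il3ra, Il15ra, Il1rap, Il9r, Il4i1b and Il6 have a summit at the end where the arrow begins, and Il18r1 and Il17rc at the far end.

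The highest region of all belonged to Il4i1b only by the rule. It held 91 and 100 fragments with a fold of 10.0 and 10.1 at chr7:44815699-44816900, in the top 5.45% and 4.93% of peaks. This region covered the annotated starts of Nup62, a nuclear pore gene, and Atf5, a stress response transcription factor gene, and the start of Il4i1b lies in it too. Il4i1 itself had a peak in PPP2CA 2 alone. Of the 15 boundary regions, 4 were shared with a boundary of a protein-coding gene outside the family (Il4i1b, Il17rc, Il9r and Il10rb), and over all 7509 boundary regions 20.1% touched more than 1 protein-coding gene. Without these 4, 11 genes remained marked at a boundary: 9 receptors and the same 2 ligands.

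Annotated starts were also examined. RefSeq promoter entries were matched for 66 of the 83 genes, with 81 starts in all. Of these, 8 starts (9.88%) lay inside a region, where 37.0% of the 21263 starts of all protein-coding genes did. They were 6 of 40 receptor starts (15.0%: Il6ra, Il2rg, Il3ra, Il6st, Il15ra and Il1rap), 1 of 33 ligand starts (3.03%: Il6) and that of Il4i1b. The start of Il3ra was covered by the PPP2CA 1 peak only. The receptor starts belong to 34 genes and the ligand starts to 27. Il10rb, Il10ra, Il17ra and Il10, all marked at a boundary, had no promoter entry and are absent from these counts.

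Base composition moved with marking. The CpG ratio is the number of CG pairs in the 300 promoter bases over the number their C and G content would give. Its median was 0.808 at the 8 covered interleukin starts and 0.255 at the 73 others, and 0.823 and 0.307 at the covered and other starts of all protein-coding genes. Receptor starts had a median of 0.320 and ligand starts of 0.214. With a division at 0.6, chosen after the values were seen, 10 of 40 receptor starts and 2 of 33 ligand starts were CpG-rich, against 47.7% of all protein-coding starts. Of the CpG-rich starts, 5 of the 10 receptor starts and neither of the ligand starts (Il12a and Il17d) lay in a region, where 65.8% of all did. Of the CpG-poor starts, 1 of 30 receptor starts (Il2rg) and 1 of 31 ligand starts (Il6) lay in a region, where 10.7% of all did. The CpG-rich receptor starts outside any region were those of Il13ra1, Il17rb, Il17rd, Il1r2 and Il4ra. Il2rg (ratio 0.163) and Il6 (0.214) thus differed from the other 6 covered starts, which ran from 0.601 to 1.01. The part of base composition in the difference between ligands and receptors was not tested.

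**Figure D4:**
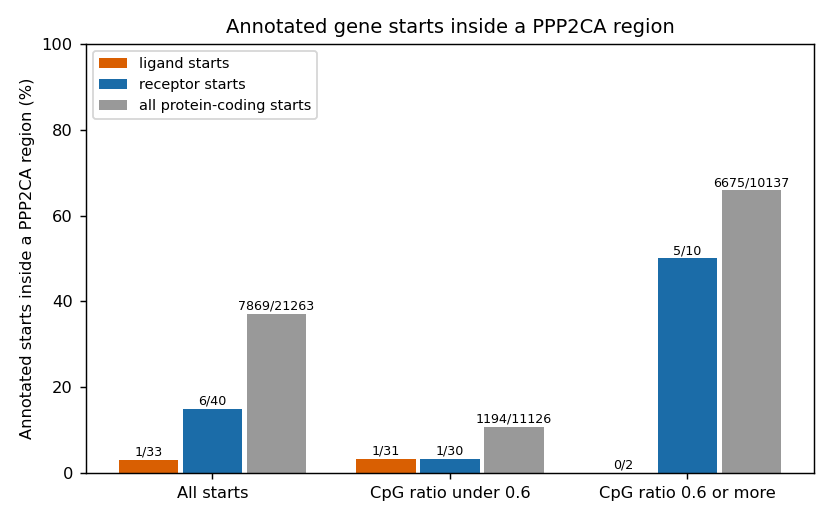
Percent of annotated starts inside a PPP2CA region for ligand, receptor and all protein-coding genes, over all starts and divided at a CpG ratio of 0.6, with counts above the bars. Receptor starts stand at 15.0% over all starts and at 5 of 10 among CpG-rich starts, and ligand starts at 3.03% over all starts.

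Motifs of 8 kinds were searched in the 300-base promoters, on both strands, with N for any base. The TATA box, TATAAA, was present in 33.3% of ligand promoters and 5.0% of receptor promoters, against 12.6% of all protein-coding promoters. The GC box bound by SP and KLF factors, GGGCGG, was in 15.2% of ligand, 45.0% of receptor and 46.2% of all promoters. The AP-1 motif, TGANTCA, was in 21.2% of ligand and 15.0% of receptor promoters, against 6.99% of all. The NF-kappaB motif was in 2 of 33 ligand promoters, Il6 among them, in none of 40 receptor promoters and in 0.423% of all. The STAT motif, TTCNNNGAA, was in 12.1% of ligand and 12.5% of receptor promoters, against 7.69% of all. The NF-Y motif, CCAAT, was near the 38.2% of all promoters in both, at 33.3% and 35.0%. Neither the CRE motif, TGACGTCA, nor the ETS motif, CCGGAAGT, was in any of the 81 promoters, where 2.23% and 5.15% of all held them. Of the 8 promoters with a region over the start, 4 held a GC box (Il1rap, Il3ra, Il4i1b and Il6st), 3 the NF-Y motif (Il1rap, Il6 and Il6st), 2 the AP-1 motif (Il15ra and Il6) and none a TATA box. These shares describe letters in a window and no site of binding.

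IgG peaks were few at these genes and also over all protein-coding genes, so their low number is not particular to these genes. IgG 1 had no peak at any of the 83 genes, where 0.606% of all protein-coding genes had one at a boundary and 1.46% at a boundary or in the body. IgG 2 had a peak inside Il4i1b (5 fragments) and inside Il1rapl2 (4 fragments), where 0.721% of all genes had one at a boundary or in the body and 0.220% at a boundary, and neither overlapped a PPP2CA region. PPP2CA 1 alone marked 19 of the 83 genes at a boundary and 25 with bodies included, where it marked 43.8% and 51.5% of all genes. PPP2CA 2 alone marked 20 and 27, where it marked 44.4% and 52.4% of all genes. A signal of equal strength with IgG would hold 9.34 to 9.61 times fewer fragments. At 13 of the 22 regions that is fewer than 3 fragments, the lowest summit called in IgG, in at least 1 pairing of the libraries, so an IgG peak of that strength may not have been called there. It is 3 or more in every pairing at the other 9: Il4i1b, Il17rc, Il6ra, Il2rg, Il10rb, Il3ra and the 3 regions of Il17ra. At the median IgG summit of 4 fragments in place of the lowest, 6 of the 22 regions would qualify. With 2 libraries a group, no exact two-sided permutation test between the antibodies can give a p under 0.333, and none is given.

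Heights in the PPP2CA libraries could be compared at 11 of the 22 regions, those with summits within 100 bp of each other, and the other 11 were not compared. Summits of the 2 libraries within 100 bp of each other were compared by an exact two-sided binomial test over all 6930 such pairs, with Benjamini-Hochberg adjustment and PPP2CA 2 scaled by 1.09. It called 4 pairs (0.0577%), none of them at an interleukin or receptor gene. Of the 11 pairs at these genes none had an unadjusted p under 0.05 either, and the adjusted p was 1 for each. The scaled ratio of PPP2CA 2 to PPP2CA 1 ran from 0.744 at Il3ra to 1.26 at Il17ra, and the smallest unadjusted p of this exact test was 0.208, at Il3ra. The test compares these libraries and not conditions, covers counting error only, and at summits this low could miss differences, so it does not show that the heights are alike.

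Of the genes downstream of the receptors, most carried a region, and those named with values here were chosen after the values were seen. Of the JAK and STAT genes, 9 of 11 had a region at a boundary, with Stat3 the highest (208 and 231 fragments) and Stat4 and Stat5b without one. Of the adaptors and kinases of IL-1 and IL-17 signalling, 10 of 11 did, among them the adaptor Myd88 (42 and 50) and the kinase Map3k7 (48 and 53), and Traf3ip2, the IL-17 adaptor, was marked inside the gene. All 4 listed feedback inhibitors had one: Socs1 (71 and 80), Socs3 (62 and 46), Cish (29 and 29) and Socs2 (11 and 13). Of 8 receptor partners or ligand subunits without an Il symbol, 2 were marked at a boundary, Csf2rb and Crlf2, and Sigirr inside the gene. Crlf2 had 185 and 217 fragments, but a fold of 6.08 and 6.35, below the medians of 6.92 and 6.88 over all boundary regions. Cntfr, Csf2rb2, Ebi3, Lifr and Osmr had no region. The background of 39.5% for all protein-coding genes applies to these counts too, and no test between the lists was made.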

How the data were processed

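The 4 deposited files are narrowPeak lists of the separate libraries. Per the submitters' processing notes the tools were MACS2, BWA, Trimmomatic, HOMER, deepTools and ChIPseeker, on GRCm38 or mm10, with no versions or roles given here. For every peak the authors deposited a −log10 p, a −log10 q, a summit position, the fold (a ratio of summit to local background) and a score, which by its values is the −log10 q times 10, cut to a whole number. Every list was called on its own library, so these values rank peaks within a list. Fragments were computed from fold = (fragments + 1) / (background + 1) and a Poisson tail for the p, which gave whole numbers for 100% of peaks (relative error under 2e-05).

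Genes and promoters came from RefSeq tables of GRCm38.p6, and 340 gene entries below 3 Mb were left out. Groups came from the titles. Every marked gene, and every gene with an IgG peak, is named. Peaks within a library, windows of 500 bp and 2 kb, −log10 q of 5, 20 fragments, 50% reciprocal overlap and IgG regions kept were alternatives. The genes, roles and lists were chosen with earlier results of these data known. A listed marker gene is not reported here. Exact intervals are Clopper-Pearson. Computations used Python 3.11.15 with scipy 1.17.1 and were tested on simulated data.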

Additional observations from a re-analysis of the deposited data

How the results depend on the processing

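Leaving out PPP2CA replicates 1 or 2 in turn gave 19 to 20 genes marked at a boundary (3 to 4 ligands, 14 to 15 receptors) and 25 to 27 with gene bodies included (6 to 7 ligands, 18 receptors), where both libraries together gave 15 (2 and 12) and 19 (4 and 14). These single-library counts contain every gene marked in both. Without PPP2CA 1 the ligand counts moved by over 1.5 times, to 4 and 7. With summits of 20 or more fragments in both libraries, 7 genes were marked at a boundary (0 ligands and 6 receptors) and 9 with gene bodies (1 ligand, Il16, and 7 receptors), and the share over all genes fell to 26.5% and 29.8%. With a window of 2 kb the ligand counts were 6 and 7. Under the other alternatives (−log10 q of 5 or more, reciprocal overlap of 50%, a window of 500 bp, IgG replicates left out in turn, regions with an IgG peak kept, shared regions left out), each count stayed within 1.5 times. The receptor count was above the ligand count under every alternative run. A floor on fragments can only lower these counts and a wider window can only raise them. A single library drops the need for a peak in both. The directions of these moves are therefore no result, and the cause of their size was not tested. The test between libraries called 3 pairs with scaling by the lowest backgrounds and 4 of 10028 with summits within 200 bp, none at these genes (16 pairs). No paired analysis was possible because the IgG lists hold no peak, and so no value, at any of these regions to pair with the PPP2CA values. A gene without a region may carry signal too low to be called.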
